A study of Homo sapiens with 6 samples.

Results

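The genes described here are the 50 genes of DNA replication licensing, origin firing and fork synthesis in a list drawn up by gene name. All 50 were on the array, out of 17687 genes measured, and each had 1 probe set. They were followed in the human Jurkat line, established from a T cell acute lymphoblastic leukaemia, on 6 Affymetrix whole-transcript arrays. On 3 arrays were 3D cultures, in which cells were mixed into bovine type I collagen at 1.7 mg/mL, left to set for 1 h and kept under medium for 2 h more. The other 3 arrays were suspension cultures, the controls, kept for the same 3 h without collagen. Both groups came from the same cell line in serum-supplemented RPMI medium. The labels number the samples of each group 1 to 3 as biological replicates and do not say what separated them. The p-values thus measure the spread between these samples, which the fits pool in part or mostly over genes. Results in a single line need not hold for other leukaemia cells. Expression is the deposited log2 signal of a probe set, so a difference of 1 is a doubling. Signals of different probe sets depend on their probes, so a higher signal of 1 gene was not read as more RNA than of another. Where the signals of 2 genes were subtracted within an array, only the change between groups was read. Marker levels serve only as a rough check.

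DNA replication begins at origins bound by the origin recognition complex, ORC. In G1 phase, ORC with CDC6 and CDT1 loads the MCM2 to MCM7 ring onto DNA, a step called licensing. At the start of S phase the kinase CDC7 with its activator DBF4, together with CDC45 and the GINS complex, turns the loaded ring into a moving helicase. Polymerase alpha-primase then lays primers, polymerases epsilon and delta extend them, and the clamp PCNA with its loader RFC keeps the polymerases on the template. E2F transcription factors, which RB holds back until late G1, are known to drive many of these genes in cycling cells. Jurkat cells divide continuously in culture, so this machinery is in use in them.

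Medians of the 6 arrays were 5.55 to 5.64, and correlations between arrays over all genes ran from 0.971 to 0.991. The median of the 13 T cell markers was 9.08 to 9.36 on the 3D arrays and 9.06 to 9.37 on the suspension arrays, in keeping with the label. Of these markers 9 were lower in 3D and 4 higher, with a median difference of -0.21, and none passed the test. The groups did not overlap for 3 of 13 on the lower side and 0 on the higher, against 8.03% and 8.28% of all genes. With the replicate block among genes whose mean reached 6, 2 of 13 fell and 0 rose, against 3.78% and 10.6% of all genes there. With numbers 2 and 3 of the 3D group exchanged, 1 fell, against 2.90%. The median of 6 measured fibroblast markers was 3.71 to 3.75 and 3.62 to 4.24, and that of 6 myeloid markers was 4.40 to 4.82 and 4.34 to 4.78. The median of 5 B cell markers was 5.11 to 5.30 on the 3D arrays and 5.05 to 5.34 on the suspension arrays. For 7 epithelial and endothelial markers it was 3.96 to 4.15 and 4.06 to 4.58. Single genes of the lists overlapped in level. The highest means were 8.28 for the B cell marker CD79A, 7.31 for KRT8, 7.01 for COL1A2 and 5.7 for the myeloid markers. The lowest T cell marker, BCL11B, had a mean of 6.45. Detection flags were not used here, so a signal near the floor of the array cannot be told from no expression. The mean of 49 of the 50 replication genes was at or above 6. The exception was POLD1, the catalytic subunit of polymerase delta, at 5.64 ± 0.31 in 3D and 5.85 ± 0.30 in suspension (SD, n = 3 each).

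Promoter sequences from RefSeq (GRCh38.p14) were read for the 250 bases before each start site. They are shown because E2F sites are the sequence feature best known for this set of genes. The table held 44 of the 50 genes; the promoters of MCM4, GINS4, MCM5, POLD3, RPA2 and RPA3 were not analysed here. The letters TTTCGCGC, TTTGGCGC, TTTCCCGC and TTTGCCGC were searched on both strands. At least 1 of them occurred in 13 of the 44 promoters, or 29.5%, against 3.71% of the 14250 promoters of measured genes. TTTCCCGC occurred in 9 of the 44, TTTCGCGC in 3, TTTGGCGC in 3 and TTTGCCGC in 0. The median GC content of the 44 was 65.6%, against 62.4% for promoters of measured genes. A match is a run of letters and not a measured binding site.

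Among the genes of smallest p in each direction of the comparison, PRIM2, CLSPN, CDC7, MCM2 and POLD2 had no match and are not shown. The promoters below are those of the same group that held a match. MCM6 was added after the search because it had the most matches. The sequences are written 5′ to 3′ on the strand of the gene, with matches in capitals. POLA1 (chrX:24693668-24693917, plus strand) holds TTTGGCGC on the opposite strand, starting 137 bases before the gene. ORC3 (chr6:87589885-87590134, plus strand) has its match 12 bases before the start and CDT1 (chr16:88803539-88803788, plus strand) 35 bases before. LIG1 (chr19:48170345-48170594, minus strand) carries TTTCCCGC on its own strand 114 bases before the start. MCM6 (chr2:135876444-135876693, minus strand) has the same 12 letters in 2 places, each made of TTTGGCGC on one strand overlapping TTTCGCGC on the other, and these begin 152 and 90 bases before the start.
POLA1: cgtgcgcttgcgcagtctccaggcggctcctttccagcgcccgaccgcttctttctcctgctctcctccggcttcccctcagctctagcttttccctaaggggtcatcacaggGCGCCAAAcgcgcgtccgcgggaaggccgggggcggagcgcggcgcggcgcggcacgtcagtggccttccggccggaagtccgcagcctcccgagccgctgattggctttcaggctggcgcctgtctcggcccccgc
ORC3: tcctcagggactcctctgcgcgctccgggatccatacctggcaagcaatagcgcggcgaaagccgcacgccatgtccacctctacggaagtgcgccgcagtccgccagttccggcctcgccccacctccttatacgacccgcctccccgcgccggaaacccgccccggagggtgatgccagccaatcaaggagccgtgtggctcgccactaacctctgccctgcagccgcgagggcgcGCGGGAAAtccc
MCM6: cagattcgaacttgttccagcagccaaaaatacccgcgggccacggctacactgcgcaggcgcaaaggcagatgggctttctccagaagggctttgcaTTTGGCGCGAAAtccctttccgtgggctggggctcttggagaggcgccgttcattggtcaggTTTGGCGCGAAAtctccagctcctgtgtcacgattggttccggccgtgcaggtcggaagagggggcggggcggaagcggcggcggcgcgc
CDT1: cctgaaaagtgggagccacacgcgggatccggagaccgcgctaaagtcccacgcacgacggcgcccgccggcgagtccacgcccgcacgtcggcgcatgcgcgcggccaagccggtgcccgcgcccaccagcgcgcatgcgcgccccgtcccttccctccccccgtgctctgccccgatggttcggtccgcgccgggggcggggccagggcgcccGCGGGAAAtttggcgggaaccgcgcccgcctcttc
LIG1: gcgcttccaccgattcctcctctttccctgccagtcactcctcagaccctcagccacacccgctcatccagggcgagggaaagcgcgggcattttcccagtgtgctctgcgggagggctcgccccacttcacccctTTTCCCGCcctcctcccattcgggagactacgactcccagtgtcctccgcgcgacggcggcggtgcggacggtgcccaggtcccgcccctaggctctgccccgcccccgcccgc

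None of the 50 genes passed the test of 3D against suspension cultures without the replicate number in the fit, while 8 of 49 passed with it as a block among genes whose mean reached 6, a share near the 14.4% of all genes there. Limma with Benjamini-Hochberg adjustment over all 17687 genes called 0 members and 0 genes at an adjusted p under 0.05 (background 0.00%). The smallest adjusted p among the members was 0.330, for POLA1. In simulated data with planted differences of 0.5 to 2, this fit found 10% of those of 0.5. Failing the test thus says little about a difference of that size. The larger planted differences ease the adjustment, so 10% may be too high for these data. Adjusted p-values below are from the fit without the block unless the block is named. Those given with the block and the filter are from the fit limited to genes whose mean reached 6. With the block over all genes, 0 members passed. At an unadjusted p under 0.05, 8 of 50 members were higher in 3D, or 16.0%, against 5.90% of all genes, and 0 were lower, against 3.97%, so that in either direction the background was 9.87%. The 8 were POLA1, ORC3, PRIM2, CLSPN, CDC7, RFC3, RFC1 and TIPIN. Among the genes with a mean at or above 6, the shares higher at that p were 16.3% of 49 members and 8.75% of 8342 genes, and the shares lower were 0.00% and 3.61%. The count of 8 became 4 of 50 without 3D replicate 3, against 6.08% of all genes, and 5, with 4 higher and 1 lower, without suspension replicate 1, against 9.38%.

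The members divided between the directions, with 31 higher and 19 lower, against 8376 and 9311 of all genes. Their median log2 difference was 0.12, against -0.02 over all genes, and 0.14 against 0.02 among genes of mean at or above 6. In same-numbered pairs 1, 2 and 3 the median of the members was 0.07, 0.23 and -0.01, so it rested mostly on pair 2. Differences of single members ran from -0.57 to 0.75, so none reached a doubling. The 3D and suspension values did not overlap for 9 members higher in 3D, or 18.0%, against 8.28% of all genes. On the lower side the members without overlap were CDT1, MCM2 and MCM7, 3 of 50, against 8.03% of all genes. In either direction 16.3% of all genes showed no overlap. Among genes of mean at or above 6, the backgrounds were 12.2% on the higher side and 8.21% on the lower side. The sign was the same in all 3 same-numbered pairs for 18 members on the higher side, or 36.0% against 20.3% of all genes, and for 7 of 50 on the lower side, against 19.8%. With each array's trend on gene span and gene density removed, the members without overlap were 7 of 50, against 15.4% of all genes, rather than 12. RNA of whole cultures was measured, so a change in the share of cells in S phase and a change in RNA per cell cannot be told apart.

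**Figure D1:**
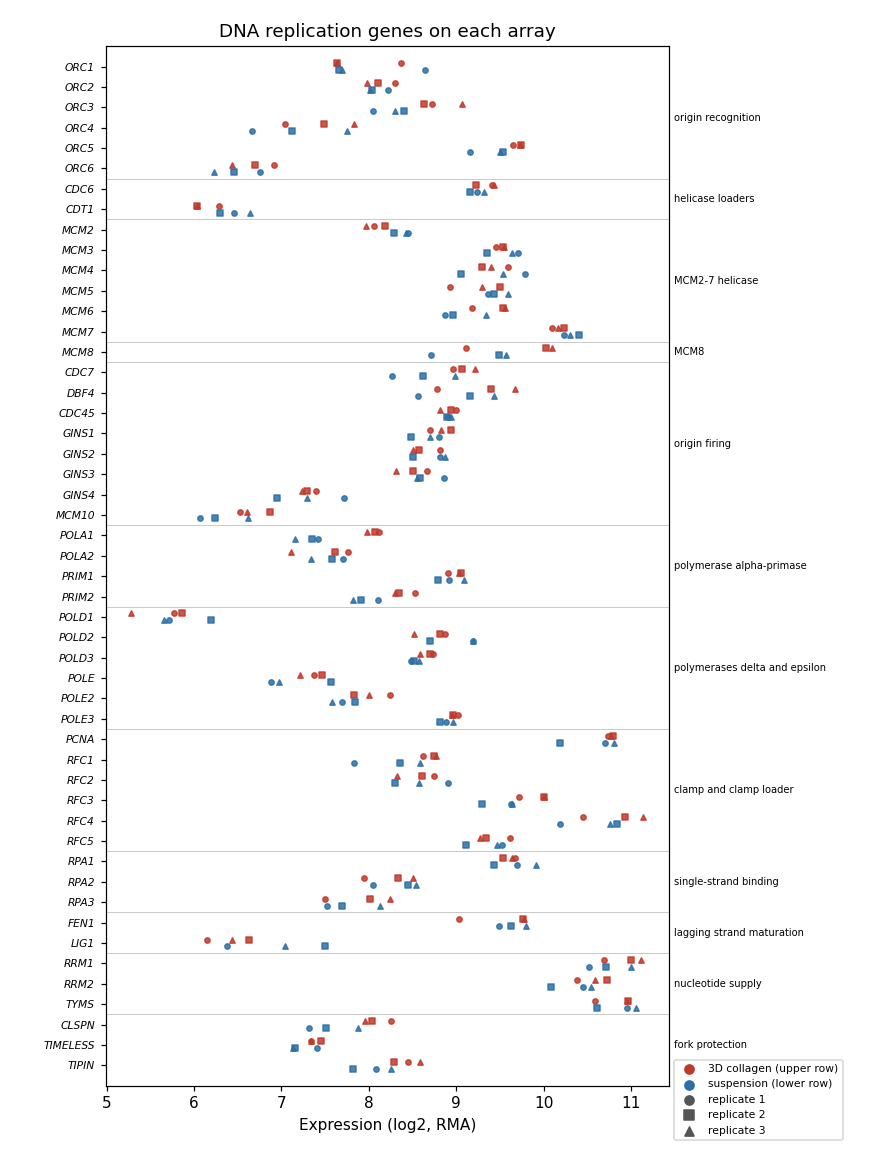
Log2 expression (x axis) of each of the 50 replication genes (rows, grouped by role) on every array, with 3D arrays in red on the upper line of a row, suspension arrays in blue on the lower line and the marker shape giving the replicate. The red and blue marks of POLA1 stand apart, while those of ORC1, DBF4 and MCM8 follow the replicate shapes in both colours.

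The polymerase alpha-primase complex, which makes the RNA-DNA primers of both strands, held the largest difference of the set. POLA1, its catalytic polymerase subunit, measured 8.12, 8.07 and 7.98 in 3D replicates 1 to 3, against 7.42, 7.35 and 7.16 in suspension. The lowest 3D array was well above the highest suspension array. The log2 difference was 0.75 ± 0.16 (SE), or 1.68-fold, with a 95% interval of 0.40 to 1.09, and limma's adjusted p was 0.330, and 0.00124 with the block among genes whose mean reached 6. It was rank 114 from the top among all 17687 differences. PRIM2, the large primase subunit, measured 8.53, 8.35 and 8.30 in 3D, against 8.10, 7.91 and 7.82 in suspension. These values did not overlap either. The difference was 0.45 ± 0.16 (SE; limma adjusted p 0.423, and 0.0263 with the block and the filter). The other 2 subunits differed little. POLA2, the accessory B subunit, had a difference of -0.05, with an interval of -0.49 to 0.39, and PRIM1, the small catalytic primase subunit, had 0.07, with an interval of -0.28 to 0.41.

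The subunits of this complex were then set against each other within each array. The POLA1 signal minus the POLA2 signal was 0.36, 0.46 and 0.87 in 3D, against -0.28, -0.23 and -0.18 in suspension, a change of 0.80. For PRIM2 minus PRIM1 it was 0.38, also without overlap. Permuting the 6 arrays between groups gave an exact two-sided p = 0.1 for each, the smallest p that 3 against 3 allows. Of 5 such pairs compared, chosen after the values were seen, none passed, with adjusted p of 0.167 to 0.300. With 3 arrays against 3, none could have passed.

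ORC, the platform on which licensing starts, had its largest difference at ORC3. This core subunit measured 8.72, 8.63 and 9.07 in 3D, against 8.05, 8.40 and 8.30 in suspension, without overlap. The difference was 0.56 ± 0.18 (SE), or 1.47-fold (limma adjusted p 0.399, and 0.0113 with the block and the filter). ORC5 also showed no overlap, with 9.65, 9.74 and 9.73 in 3D, against 9.16, 9.53 and 9.50 in suspension, at 0.31 ± 0.16. ORC4 and ORC6 had differences of 0.28 ± 0.28 and 0.20 ± 0.19, and ORC2 had 0.04 ± 0.16. ORC1, the subunit whose protein level cycles in human cells, measured 8.37, 7.63 and 7.63 in 3D, against 8.64, 7.66 and 7.69 in suspension. Replicate 1 was high in both groups, and the difference of -0.12 ± 0.29 was small beside that spread. For ORC3 minus ORC1 within each array the change was 0.68 with overlap between groups (exact two-sided permutation p = 0.3). That pair was chosen after the values were seen, and 3 against 3 allows no p under 0.1, so the permutation cannot decide.

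The helicase loaders pointed in different directions. CDT1, which brings the MCM ring to ORC and is destroyed once S phase starts, measured 6.29, 6.03 and 6.03 in 3D, against 6.46, 6.30 and 6.64 in suspension. All 3D values were below the suspension values, with a narrow gap between 3D replicate 1 and suspension replicate 2. The difference was -0.35 ± 0.17 (SE; limma adjusted p 0.519). CDC6, the ATPase that works with CDT1, had 9.41, 9.23 and 9.43 in 3D, against 9.24, 9.16 and 9.32 in suspension, and these ranges overlapped at a difference of 0.11 ± 0.15.

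Of the 6 genes of the MCM ring, 5 had lower means in 3D and 1 had a higher mean, and none passed. MCM2 measured 8.06, 8.18 and 7.97 in 3D, against 8.45, 8.29 and 8.42 in suspension. Its groups did not overlap, at a difference of -0.32 ± 0.15 (SE; limma adjusted p 0.520). MCM7 also showed no overlap, at -0.15 ± 0.15, although 3D replicate 2 and suspension replicate 1 both read 10.23 when rounded. MCM5 measured 8.93, 9.50 and 9.30 in 3D, against 9.36, 9.43 and 9.59 in suspension, with overlap, at -0.21 ± 0.18 (limma adjusted p 0.710). MCM3 and MCM4 stood at -0.06 and -0.03, with intervals of -0.41 to 0.30 and -0.48 to 0.42. MCM6, the ring gene on the higher side, measured 9.18, 9.54 and 9.56 in 3D, against 8.87, 8.96 and 9.34 in suspension, a difference of 0.37 ± 0.19. It was higher in each of the 3 same-numbered pairs, although suspension replicate 3 was above 3D replicate 1. The MCM6 signal minus the MCM2 signal was 1.12, 1.37 and 1.59 in 3D, against 0.42, 0.67 and 0.92 in suspension. That is a change of 0.69 without overlap (exact two-sided permutation p = 0.1, the smallest p that 3 against 3 allows). These are the ring genes of highest and lowest difference, paired after the values were seen, so the permutation cannot decide.

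MCM8 is not part of that ring and is known for helping homologous recombination. It measured 9.11, 10.03 and 10.10 in 3D, against 8.71, 9.49 and 9.57 in suspension. Replicate 1 was low in both groups, and within each number the 3D array was higher by 0.39, 0.54 and 0.53. The difference of 0.49 had an SE of 0.29 without the replicate number as a block (limma adjusted p 0.595). With the block, the limma adjusted p was 0.134 over all genes and 0.0173 with the filter.

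Among the genes that fire licensed origins, the kinase gene had the largest difference and the helicase partners were within 0.17 of 0. CDC7 measured 8.96, 9.07 and 9.22 in 3D, against 8.26, 8.62 and 8.99 in suspension. The groups met, since suspension replicate 3 was just above 3D replicate 1. The difference was 0.46 ± 0.20 (SE; limma adjusted p 0.498, and 0.0279 with the block and the filter). Its activator DBF4 had 0.23 ± 0.27, with values that followed the replicate number. MCM10, a scaffold that helps the helicase start, had 0.35 ± 0.19. CDC45, which rides on the active helicase, had a difference of 0.00 with an interval of -0.33 to 0.33. The genes of the 4 GINS subunits, which complete that helicase, ran from -0.17 for GINS3 to 0.16 for GINS1.

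**Figure D2:**
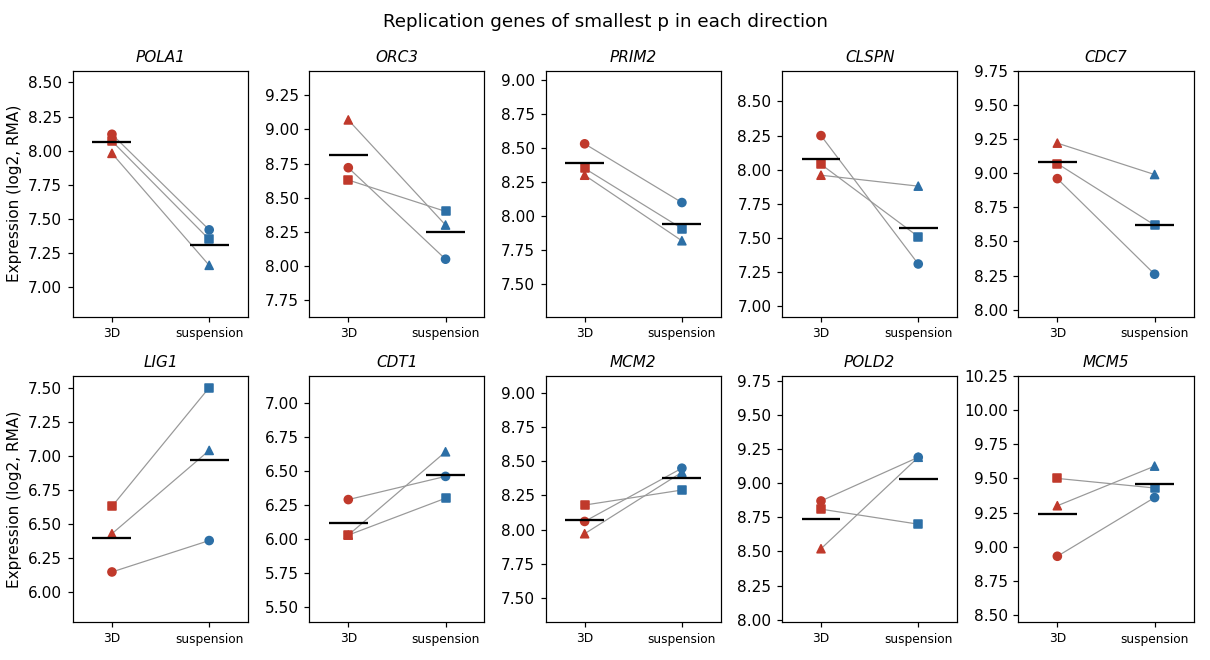
Log2 expression (y axis, the same height of scale in each panel) of the 5 members of smallest p on the higher side (top row) and on the lower side (bottom row), in 3D and suspension, with lines joining arrays of the same replicate number and black bars for the group means. POLA1 falls along every line from the 3D side, with differences of 0.70, 0.72 and 0.83, while the lines of LIG1 start from levels that differ between replicates.

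The subunits of the extending polymerases differed by no more than 0.32 in either direction. POLD2, a structural subunit of polymerase delta, measured 8.87, 8.81 and 8.52 in 3D, against 9.19, 8.70 and 9.19 in suspension. The ranges overlapped, at a difference of -0.29 ± 0.19 (SE; limma adjusted p 0.615). POLD1 measured 5.77, 5.86 and 5.28 in 3D, against 5.71, 6.19 and 5.65 in suspension, also with overlap, at -0.21 ± 0.21. POLD3, a further delta subunit, was at 0.15 ± 0.15 without overlap, but narrowly, with 8.58 in 3D replicate 3 and 8.57 in suspension replicate 3. For polymerase epsilon, the catalytic subunit gene POLE had 0.21 ± 0.20, POLE2 had 0.32 ± 0.17 and POLE3 had 0.10 ± 0.15. None of the 6 had an interval that left out 0.

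Genes of the clamp loader, the RFC complex that opens PCNA onto primed DNA, were split by subunit. RFC1, the large subunit, measured 8.62, 8.75 and 8.77 in 3D, against 7.83, 8.36 and 8.58 in suspension. The difference was 0.46 ± 0.20 (SE; limma adjusted p 0.504, and 0.0316 with the block and the filter). RFC3 measured 9.72, 10.01 and 10.00 in 3D, against 9.63, 9.29 and 9.64 in suspension, at 0.39 ± 0.17 (limma adjusted p 0.503). Neither showed overlap between the groups, by a small gap in each case. RFC4 had 0.24 ± 0.23, RFC5 had 0.04 ± 0.18 and RFC2 had -0.03 ± 0.20. PCNA itself measured 10.74, 10.79 and 10.77 in 3D, against 10.70, 10.19 and 10.81 in suspension. A low value in suspension replicate 2 set its difference of 0.20 ± 0.19, and the pair differences were 0.04, 0.60 and -0.04.

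RPA, which coats single-stranded DNA, showed differences of -0.06 ± 0.17 for RPA1, -0.08 ± 0.20 for RPA2 and 0.14 ± 0.23 for RPA3 (SE). LIG1, the ligase that joins Okazaki fragments, was the lowest of all 50. It measured 6.15, 6.63 and 6.43 in 3D, against 6.38, 7.50 and 7.04 in suspension. Suspension replicate 1 was within the 3D range, so the groups overlapped, while each 3D array was below its same-numbered suspension array. The difference was -0.57 ± 0.26 (SE), or 0.675-fold, with a 95% interval of -1.14 to 0.01. Limma's adjusted p was 0.514, and 0.0108 with the block and the filter. The difference was -0.30 without suspension replicate 2 and -0.86 without suspension replicate 1. FEN1, the nuclease that trims Okazaki fragment flaps, had -0.12 ± 0.22. FEN1 minus LIG1 within each array was 2.89, 3.13 and 3.34 in 3D, against 3.12, 2.14 and 2.76 in suspension, with overlap (exact two-sided permutation p = 0.2). That pair was chosen after the values were seen, and 3 against 3 allows no p under 0.1, so the permutation cannot decide.

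Genes of nucleotide supply had differences from -0.04 to 0.21. The ribonucleotide reductase genes RRM1 and RRM2 had differences of 0.20 ± 0.19 and 0.21 ± 0.18 (SE). In same-numbered pairs RRM1 had 0.17, 0.29 and 0.13. RRM2 had -0.07, 0.64 and 0.05, so its difference was set by a low value of 10.08 in suspension replicate 2. TYMS, thymidylate synthase, measured 10.59, 10.97 and 10.95 in 3D, against 10.96, 10.61 and 11.06 in suspension. The ranges overlapped, at -0.04 ± 0.18, and the sign turned with the array left out.

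Genes of fork protection, which steady stalled forks and pass on the checkpoint signal, all had higher means in 3D. CLSPN, whose product Claspin lets ATR activate CHK1, measured 8.25, 8.04 and 7.96 in 3D, against 7.31, 7.51 and 7.88 in suspension. The gap between groups was small, because suspension replicate 3 came close to the lowest 3D array. The difference was 0.52 ± 0.19 (SE), or 1.43-fold (limma adjusted p 0.426, and 0.0232 with the block and the filter). In the same-numbered pairs the difference was 0.94, 0.52 and 0.08. TIPIN measured 8.45, 8.29 and 8.58 in 3D, against 8.08, 7.82 and 8.25 in suspension, without overlap, at 0.39 ± 0.17 (limma adjusted p 0.505). Its partner TIMELESS had 0.15 ± 0.16.

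**Figure D3:**
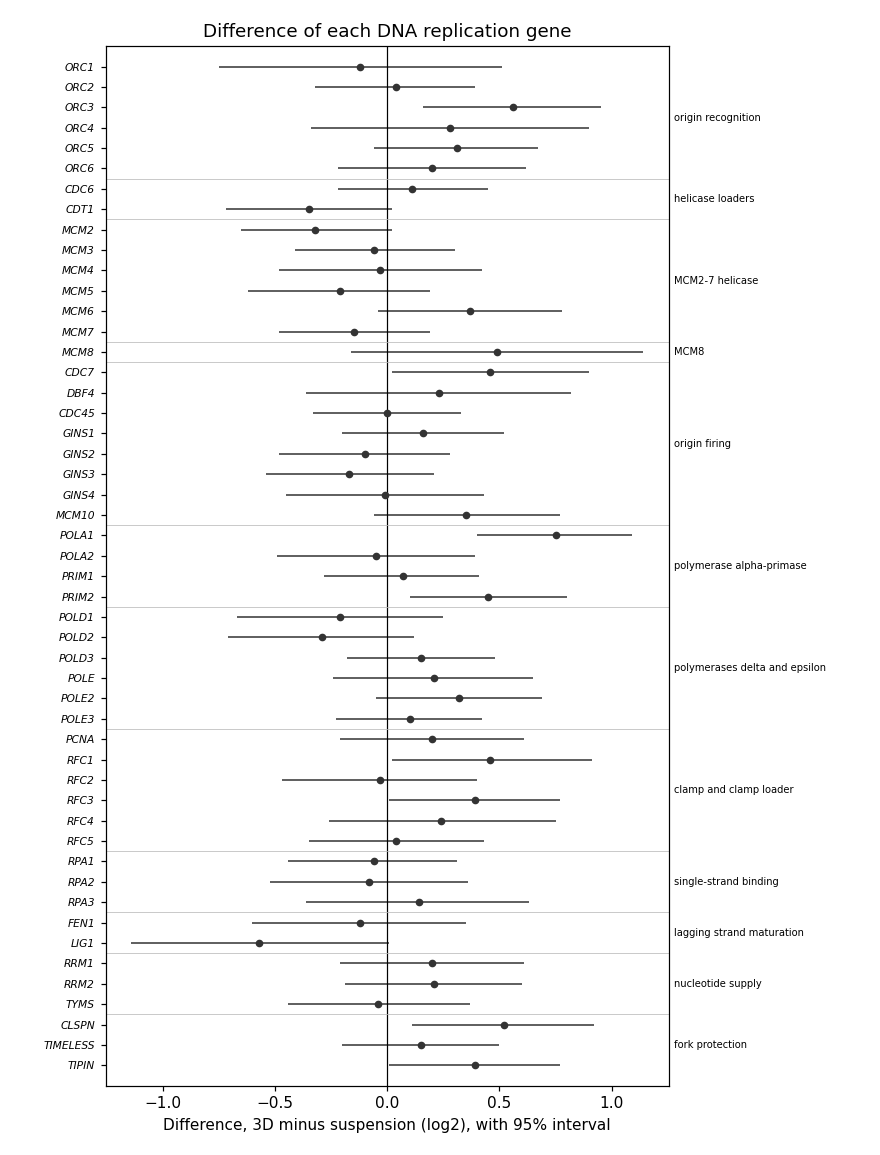
Log2 difference, 3D minus suspension (x axis), with its 95% interval from limma for each of the 50 genes (rows, grouped by role). The intervals of 8 genes left out 0, all on the higher side, from POLA1 at 0.75 to RFC3 and TIPIN at 0.39, and that of LIG1 reached from -1.14 to 0.01.

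Values of many members followed the replicate number in both cultures, as did those of genes at large. Both arrays numbered 1 were above the other 4 arrays for 9 of 50 members, ORC1 and MCM4 among them, against 14.2% of all genes. They were below the others for 9 more, such as DBF4, MCM8, ORC4 and RRM1, against 10.8% of all genes, so both counts were near the background. DBF4, for example, measured 8.78, 9.40 and 9.67 in 3D, against 8.56, 9.16 and 9.43 in suspension. Across the 50 members, deviations of same-numbered arrays from their group means correlated at 0.73, 0.38 and 0.72 for numbers 1, 2 and 3, as a description over genes that share these arrays. The median of 25 genes of G2 and mitosis followed the same order, at 8.41, 9.39 and 9.51 in 3D, against 8.02, 9.07 and 9.30 in suspension. Between the cultures these 25 genes had a median difference of 0.21, with 18 higher and 7 lower, against 0.12 for the members. None was at an unadjusted p under 0.05 in limma. In the blocked fit over genes whose mean reached 6, 6 of 25 rose and 0 fell, against 10.6% and 3.78% of all genes. The part of these genes in the members' values was not tested. The median of the 50 members themselves was 8.74, 8.73 and 8.68 in 3D, against 8.68, 8.52 and 8.64 in suspension.

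**Figure D4:**
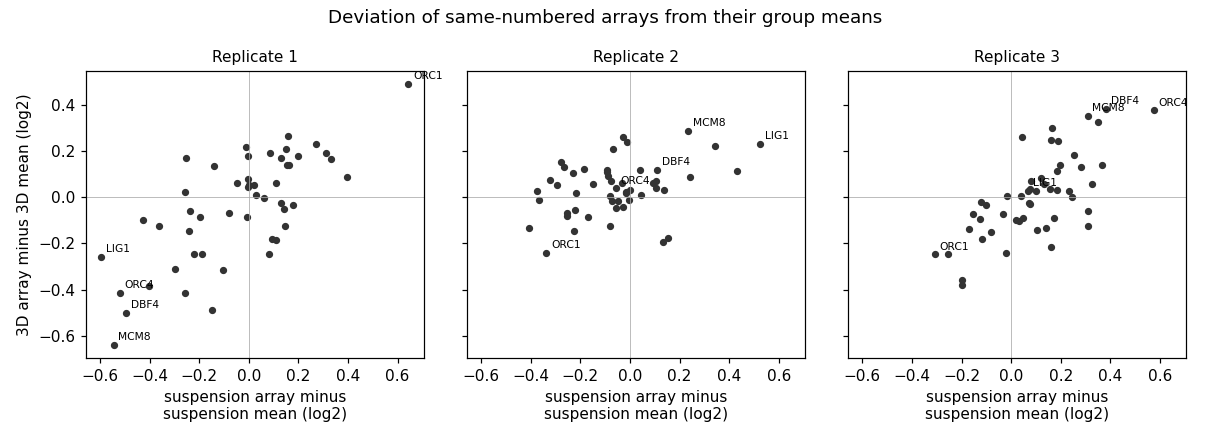
Deviation of each of the 50 members from its group mean on the suspension array (x axis, log2) and on the 3D array of the same replicate number (y axis, log2), in 1 panel per number. The points lie along a rising line for numbers 1 and 3 (r = 0.73 and 0.72) and less so for number 2 (0.38), with ORC1 high and MCM8 and DBF4 low in number 1.

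Taking the replicate number into the fit as a block changed the result for some members. The labels do not say that a number links the groups, and the block was chosen from these same values. Over all genes 0 members passed with the block (background 0.0905%, 16 genes), and POLA1 had a limma adjusted p of 0.0672. In the fit with the block over the 8342 genes whose mean reached 6, 7 of 49 members rose in 3D and 1 fell. That is 14.3% and 2.04% of the members, against 10.6% and 3.78% of all genes in that fit, and 8 of 49 in either direction, against 14.4%, so the share was near the background. The 7 were POLA1, ORC3, MCM8, PRIM2, CLSPN, CDC7 and RFC1, with limma adjusted p of 0.00124 for POLA1 to 0.0316 for RFC1. LIG1 fell at a limma adjusted p of 0.0108. Without the block the same 8342 genes gave 0 members and 0 genes. With 3D 3 matched to suspension 2 and 3D 2 to suspension 3 in place of the numbers, the same 8 members passed, 7 higher (background 9.03%) and 1 lower (2.90%). Without number 1 the members that passed were 2 of 49 (background 5.49%), without number 2 they were 9 (17.5%), and without number 3 they were 3 (4.87%), all near the background. POLA1 was among them each time, at limma adjusted p of 0.00736, 0.000294 and 0.0131. Those fits had 1 residual degree of freedom each, with a prior of 43 without number 1 and an infinite prior without number 2 or 3. Their p-values thus rest mostly or wholly on a spread pooled over genes. The filtered fit with the block on all 6 arrays had 2 residual degrees of freedom and a prior of 25. Its p-values too rest mostly on a spread pooled over genes. The SE there was 0.13 to 0.15 for the 8 members that passed, whatever the spread of their own pairs.

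The members' differences ran with the length of the gene. Gene span in the RefSeq annotation correlated with the difference over the 50 members at a Spearman rho of 0.53, and the rho was -0.48 for the number of genes within 500 kb. Over all 17687 genes these were 0.25 and -0.28. All points come from the same 6 arrays, so the values are descriptions. In same-numbered pairs 1, 2 and 3 the correlation of the members with span was 0.50, 0.34 and 0.46. The 6 members in the longest quintile of genes all had higher means in 3D, with a median of 0.42, against a median of 0.06 for all genes of that quintile. They were PRIM2 (span 425 kb), POLA1 (303 kb), RFC3 (159 kb), ORC4 (91.2 kb), RRM2 (88.4 kb) and ORC3 (87.7 kb). The 3 in the shortest quintile, POLE3, FEN1 and CDT1, had a median of -0.12, against -0.09. LIG1, at 54.9 kb, and CDC7, at 24.9 kb, departed from that order.

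Removing each array's linear trend on span and gene density left POLA1 at 0.64, ORC3 at 0.50 and CLSPN at 0.49. These 3 were the members at an unadjusted p under 0.05 in limma after that step, where 8 were before it, and 3 of 50 stands against 8.84% of all genes. PRIM2 stood at 0.33 and LIG1 at -0.55. The median of the 50 members stayed at 0.12. The 13 members with an E2F-like match before the start had a median difference of -0.04, with 6 higher and 7 lower, and the 31 without had 0.16, with 22 higher, 8 lower and CDC45 at 0.00.

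**Figure D5:**
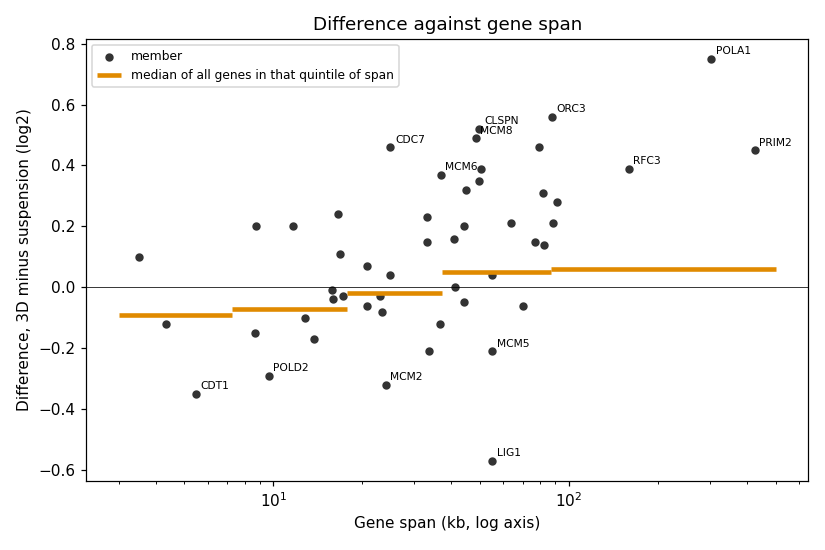
Log2 difference, 3D minus suspension (y axis), against gene span in kb (log axis) for the 50 members (points), with orange bars at the median difference of all genes in each quintile of span. The members in the longest quintile, from ORC3 to PRIM2, are all above 0, and the orange bars run from -0.09 to 0.06.

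A separate list of 40 other replication genes, of which 37 were measured, gave a similar picture. Their median difference was 0.09, with 21 higher and 16 lower, 0 passed over all genes, and at an unadjusted p under 0.05 in limma 6 were higher (background 5.90%) and 0 lower (3.97%). TOPBP1, an activator of ATR that also helps load CDC45, had 0.59 ± 0.15 (SE). It measured 9.64, 9.72 and 9.63 in 3D, against 9.03, 9.07 and 9.13 in suspension, without overlap. MTBP, which works with TICRR at origin firing, had 0.60 ± 0.18, and RIF1, a regulator of replication timing, had 0.59 ± 0.18. On the lower side stood TK1, thymidine kinase, at -0.36 ± 0.17, RNASEH2A, a nuclease subunit that removes RNA from DNA, at -0.30 ± 0.16, and CDC25A, a phosphatase that activates CDKs, at -0.37 ± 0.23. Limma's adjusted p for these 6 was 0.359 to 0.605. In the blocked fit over genes whose mean reached 6, 4 of the 36 tested rose and 0 fell, against 10.6% and 3.78% of all genes. The Spearman correlation of difference with span was 0.59 over these 37 genes.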

How the data were processed

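Total RNA of 6 Jurkat cultures was labelled with the GeneChip WT PLUS kit, per the labels' protocols. The authors deposited a log2 value for each probe set, made with RMA and the Transcriptome Analysis Console, per the submitters' processing notes; versions and genome build are not given in the sources used here. That procedure subtracts background, quantile-normalizes the arrays and combines probes by median polish. Differences of dim probe sets are compressed by it, and a change common to all genes would be removed. Values were used as deposited; 0 further columns of per-sample values were present.

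The platform's gene table gave 17709 of 21448 probe sets 1 gene symbol, 0 several and 3739 none. All 17709 matched RefSeq by gene identifier. For 20 genes with several probe sets, that of highest mean was kept, which left 17687 genes. Limma 3.58.1 (R 4.3.3; lmFit, eBayes, two-sided, Benjamini-Hochberg over all genes, threshold 0.05, no filter) was fitted to the whole table (residual degrees of freedom 4, prior 6.79). The fit was tested on simulated data with planted changes. Precision is limited by the number of arrays.

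The members and lists were chosen with earlier results of these data known. Values of every array were given for the 5 members of smallest p in each direction and for the members of highest and lowest mean, and for others to show overlap. From the other replication genes the 3 of smallest p in each direction were named.

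Both groups carry replicates numbered 1 to 3 in their titles. Over all genes, deviations of same-numbered arrays from their group means correlated at 0.521, 0.120 and 0.337, all above the limit of 0.1. On that ground same-numbered samples were taken as pairs. The fit with the number as a block is given beside the planned fit without it. The labels do not state this pairing, so it rests on the same values that were then tested. A crossed matching of numbers 2 and 3 (0.230 and 0.149) meets the limit too. Protein sequences were not used here. Plots were drawn with matplotlib 3.10.9.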

Additional observations from a re-analysis of the deposited data

How the results depend on the processing

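No setting without a block called any member or gene. The replicate block over all genes called 16 genes and 0 members. The replicate block limited to means of 6 or more called 1199 genes and 8 members, with 16 members at an unadjusted p under 0.05 (32.0% of all genes); crossed matching of numbers 2 and 3 gave 995, 8 and 16 (29.4%). That blocked fit called 458 genes without replicate 1, 1457 without replicate 2 and 406 without replicate 3, with 2, 9 and 3 members called and 9, 16 and 13 at an unadjusted p under 0.05, where all genes gave 22.5%, 32.5% and 19.1%. Leaving out each array in turn without a block called 0 genes and 0 members, with 4 to 9 members at an unadjusted p under 0.05, against 6.08% to 11.3% of all genes, and 14 to 21 without overlap, against 22.6% to 30.1%. Removing the trend on span and neighbours gave 3 members at an unadjusted p under 0.05 (8.84% of all genes) and 7 without overlap (15.4%). The difference of TYMS ran from -0.17 to 0.09 as arrays were left out, above 0 without 3D replicate 1 (0.09), suspension replicate 1 (0.00) or suspension replicate 3 (0.05), and it was 0.13 in the filtered fit with replicate block without replicate 1; the cause was not tested. The median difference of the members ran from 0.02, in the filtered fit with replicate block without replicate 2, to 0.15, in that fit without replicate 3. Of 198 values of single members under other settings, 172 kept direction and side of the threshold, 22 passed only with a block and 4 turned. With quantile normalization once more, 5 members were higher and 2, MCM2 and CDT1, lower at an unadjusted p under 0.05 in limma, where 8 and 0 had been (10.1% of all genes in either direction). The members without overlap were then 9 of 50, against 16.8% of all genes.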
